A study of Mus musculus with 2 samples.

Results

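The genes of potassium, sodium, calcium and TRP channels and of the mechanically activated Piezo channels were examined in endothelial cells of the embryonic mouse kidney. Members were all genes whose symbol in the platform annotation begins with Kcn, Scn, Cacn, Trp or Piezo in the form used for channel subunits, taken from probe sets assigned to exactly 1 gene. This gave 136 of 18193 genes: 80 potassium, 11 sodium, 24 calcium, 19 TRP and 2 Piezo channel genes. The data are 2 arrays of 1 group, without a control or a second condition. Each array held RNA of a pool of approximately 5 to 10 E15.5 kidneys (Theiler stage 23) from CD-1 mice, sex unknown, carrying the transgene Tg(TIE2GFP)287Sato, which places GFP under the promoter of the endothelial receptor Tie2. The cells were freed with trypsin and sorted by flow cytometry, and the RNA went through 2 rounds of amplification. The Tie2 promoter is also known to be active in part of the blood lineage. The labels give endothelium of renal artery and vein as the source, whereas the protocol dissociates whole kidneys, and the sample titles carry the name FLK1, another endothelial receptor. Nothing in the labels says that the pools came from separate litters, so the spread between them may be technical.

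Ion channels set the membrane potential and let calcium and other cations into the cell. Endothelial cells are not electrically excitable in the way of neurons and muscle. They are known for inward rectifier and calcium-activated potassium channels, which hold the membrane hyperpolarized and so favour calcium entry, and for TRP and Piezo channels, which carry calcium in response to shear stress, ligands and store depletion. Voltage-gated sodium and calcium channels are known mainly from neurons and muscle.

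The identity of the sorted cells was checked with marker genes. All 16 endothelium markers were above background on both arrays, among them Cdh5 (22434.9 and 20732.8), Pecam1 (1257 and 2247) and Tek, the gene of Tie2 itself (15907.8 and 21498.7). Each pair of intensities, in arbitrary units, lists replicate 1 first. All 10 macrophage markers, 6 of 8 erythroid and 4 of 7 platelet markers also exceeded background, as did 11 of 12 renal stroma and 5 of 9 mural markers. Of 11 neuron markers 4 were above background, of 7 for Schwann cells and glia 2, of 6 for nephron progenitors 3, of 15 for tubule and ureteric bud 4, of 4 for podocytes 2, and of 10 for skeletal and cardiac muscle 0. These counts are to be read against the 61.0% of all genes above background. The platelet, mural, nephron progenitor and podocyte counts lay near or under that share. A count near or under it does not by itself show that cells of the type were present. In bulk RNA, fewer cells of a type and less RNA per cell cannot be told apart, and a channel's RNA cannot be assigned to one of these cell types.

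A gene was called above background when its brightest probe set exceeded, on both arrays, the 95th percentile of probe sets for olfactory, vomeronasal and taste receptors. This limit was 202.5 in replicate 1 and 204.1 in replicate 2. Of the 136 channel genes, 36 (26.5%) were above background on both arrays, against 61.0% of all genes. A further 21 (15.4%) exceeded the limit on 1 array, 7 of them in replicate 1 and 14 in replicate 2, against 6.49% of all genes, and 79 did so on neither. The lower share was also seen among genes measured by a single probe set, where 16 of 55 channel genes (29.1%) and 44.5% of all such genes were above background. Counted by probe set, 44 of 284 for channels were above the limit, against 19204 of 34945 over the array. With 1 group there is no test, and these are counts on 2 arrays, whose number limits the precision.

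Counts by family rest on few genes in most cases and are to be read against the 61.0% of all genes above background. Potassium channels had 21 of 80 (26.2%), sodium channels 3 of 11 (27.3%), calcium channels 3 of 24 (12.5%), TRP channels 7 of 19 (36.8%) and Piezo channels both genes. Of the 36, 9 exceeded the limit more than 5 times on both arrays, and 18 lay within 2 times the limit on at least 1 array.

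**Figure D1:**
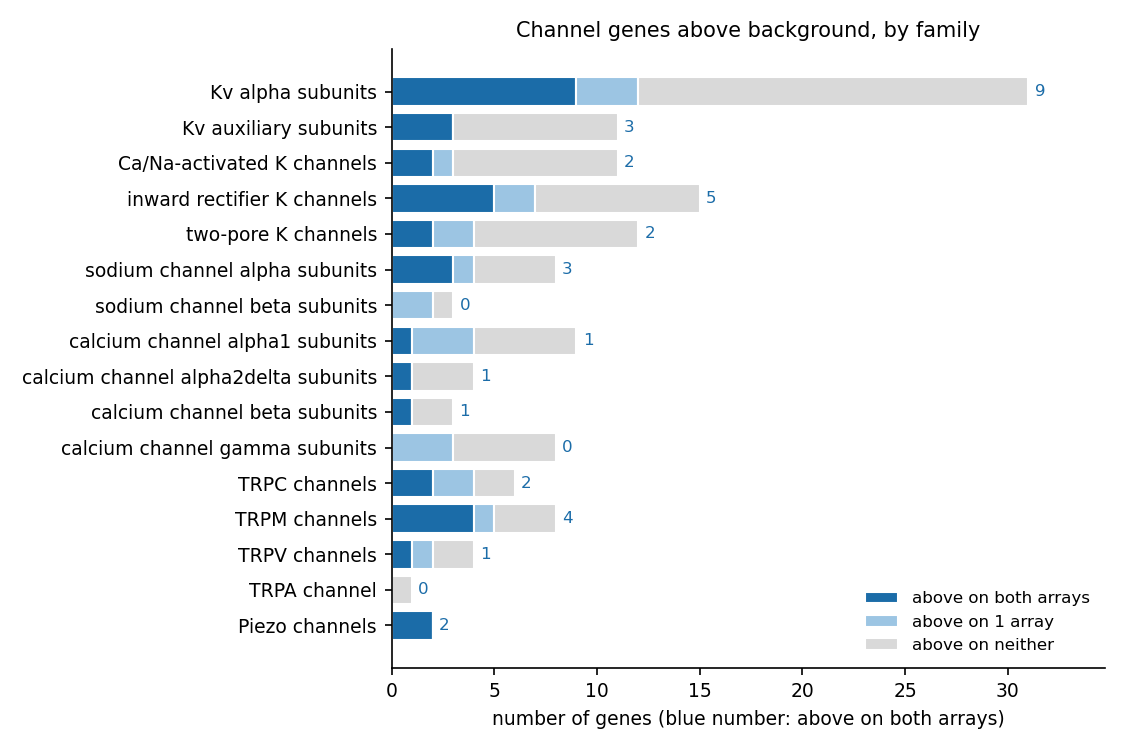
Number of channel genes in each of 16 families (horizontal bars), split into genes above background on both arrays (dark blue), on 1 array (light blue) and on neither (grey). Voltage-gated potassium (Kv) alpha subunits form the longest bar, with 9 of 31 genes above background on both arrays, while sodium channel beta and calcium channel gamma subunits have 0.

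The Piezo genes were both detected. Piezo1, which encodes the channel that senses shear stress in endothelium and is needed for vessel formation in mouse embryos, had intensities of 21776.7 and 19642.9, a mean of 20709.8 ± 1509 (SD, n = 2) and at least 96.2 times the limit. Piezo1 is also known from red blood cells and macrophages, and it overlaps the coding gene Ctu2. The erythroid gene Hbb-y was at 55396.7 and 48789.0 in these pools, far above the other erythroid markers. Hba-x had 972.9 and 491.8 and Hbb-bh1 1127 and 467.1, while Klf1 (132.4 and 173.5) and Rhag (35.0 and 3.66) were under the limit on both arrays. The part of red cells in the Piezo1 value was not tested. Piezo2, known from sensory neurons of touch and proprioception, had 1359 and 1216, and its second probe set, at 595.5 and 375.9, was also above the limit on both arrays. The neuron markers Snap25 (69.5 and 10.6) and Elavl4 (195.7 and 248.6) were not above it on both arrays, and Stmn2 was (350.0 and 448.6). Their part in the Piezo2 values was not tested.

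K2P channels carry the background leak of potassium that sets the resting potential. Kcnk6, a leak channel known from endothelium and macrophages, had 5443 and 4797, at least 23.5 times the limit, and differed little between the pools (log2 difference, replicate 1 minus replicate 2, of 0.22). Kcnk5, the alkali-activated channel of the renal proximal tubule, had 988.9 and 513.5, but its second probe set was at 62.0 and 12.5. The tubule and ureteric bud markers had summed intensities of 3036 and 3646 over 15 genes, of which 4 were above background on both arrays. None of them exceeded 426.3 in replicate 1 or 563.7 in replicate 2. The part of tubule and ureteric bud cells in the Kcnk5 value was not tested. Kcnk1 (71.5 and 252.6) and Kcnk13, a channel of microglia (174.5 and 312.1), passed the limit in replicate 2 only. The 8 remaining genes lay between 14.5 and 172.6, including Kcnk10 (125.0 and 99.4), Kcnk12 (36.1 and 18.6) and Kcnk15 (14.5 and 72.9).

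Inward rectifiers pass potassium more readily into the cell than out of it, and 5 of 15 were above background. The pore subunits of ATP-sensitive potassium channels, which open when cellular ATP falls, were both among them. Kcnj8, the pore of the vascular form, had 1735 and 1874 (1805 ± 98.0, SD, n = 2), and Abcc9, the gene of its regulatory sulphonylurea receptor and its direct neighbour in the genome, had 7823 and 5938. Both subunits of the vascular channel were therefore measured in both pools. Kcnj11, the pore of the pancreatic beta cell form, had 553.6 and 765.7 on 1 probe set and 57.7 and 83.5 on the other, while its neighbour and partner Abcc8 had 100.4 and 108.6, under the limit on both arrays.

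Kcnj8 and Abcc9 are known from pericytes as well as endothelium. The mural markers Pdgfrb (2246 and 4253), Rgs5 (1212 and 1838) and Cspg4 (683.8 and 857.1) were above background and higher in replicate 2, as were all 5 mural markers above background, with summed intensities of 8042 and 13374.8 over the list and Cnn1 (7.17 and 3.83) and Des (77.5 and 106.4) under the limit. The log2 difference was -0.08 for Kcnj8 and 0.43 for Abcc9, against a median of -0.57 over those mural markers, and the part of mural cells in the Kcnj8 and Abcc9 values was not tested.

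Of the other inward rectifiers, Kcnj15, known from kidney epithelium, had 732.7 and 647.9, although its other probe sets were at 83.0 and 81.6 and at 107.3 and 142.2. Its genomic neighbour Kcnj6, a G protein-gated channel of neurons, was close to the limit (235.7 and 227.0), and 4 other probe sets for it were below. Kcnj14 had 226.6 and 308.8. Kcnj3 (140.8 and 288.5) and Kcnj10, a channel of glia and distal tubule (95.7 and 311.5), exceeded the limit in replicate 2 alone. Kcnj2, the strong rectifier known to set the endothelial resting potential and to respond to flow, had 72.6 and 10.4 on its only probe set, and Kcnj1 (48.3 and 7.16), Kcnj12 (20.9 and 64.5) and Kcnj13 (143.5 and 165.5) were likewise under the limit.

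Voltage-gated (Kv) alpha subunits form the pore of channels that open on depolarization, and 9 of 31 were above background. Kcna5, a channel of vascular smooth muscle and cardiac atrium, had 1995 and 2718, at least 9.85 times the limit. Kcnd3, which carries the transient outward current in heart and neurons, had 2277 and 1998 on 1 of 4 probe sets. The 3 other Kcnd3 probe sets lay between 5.39 and 180.1, so the Kcnd3 call rests on 1 probe set.

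The other 7 Kv alpha subunits had lower margins over the limit. Kcnq1, a channel of heart and epithelia, had 491.4 and 207.5, the second value being only 1.02 times the limit, and Kcnq5, a channel of neurons and vascular smooth muscle, had 280.7 and 536.0. Kcna6 (428.7 and 331.2), Kcnh2, which repolarizes the heart (370.1 and 314.7), and Kcnd1 (304.4 and 254.0) were higher in replicate 1, and Kcna7 (264.9 and 325.9) in replicate 2. For Kcnd1 this rests on 1 of 3 probe sets. Its others, under the limit at 40.15 and 130.7 and at 44.7 and 173.4, were higher in replicate 2. Kcnc1, a channel of fast-firing neurons, had 270.4 and 207.5. Kcna5, Kcna1 and Kcna6 lie side by side in the genome, and the middle gene, Kcna1, passed the limit in replicate 2 only (160.3 and 270.0).

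On its brightest probe set Kcnh3 (177.2 and 249.9) also passed in replicate 2 only, while another passed in replicate 1 only (259.1 and 91.3), and Kcna2 (209.5 and 161.3) in replicate 1 only. The 19 Kv alpha genes above the limit on neither array ranged between 1.35 and 198.1. They included Kcna3, the channel of lymphocytes and macrophages (72.2 and 93.5), Kcna4 (44.0 and 113.0) and Kcnc2 (95.5 and 188.3).

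Auxiliary subunits modify the gating of Kv channels, and 3 of 11 were above background. Kcne3, a single-span partner that holds Kcnq1 channels open, had 1635 and 826.9, and Kcne4, which inhibits Kcnq1 and Kcna3 channels, had 237.0 and 535.9. After the medians of the pools had been made equal, Kcne3 was 2.03-fold and its partner Kcnq1 2.43-fold higher in replicate 1. Kcne4 was 2.21-fold higher in replicate 2. Without that step the log2 difference of Kcne3 was 0.98, just under 2-fold. Kcnab2, a cytoplasmic beta subunit, was nearly the same in the pools (389.7 and 385.1) on 1 of 2 probe sets, and it overlaps Nphp4. The others, among them Kcnab1 (17.5 and 59.4), Kcnab3 (6.55 and 33.1) and Kcne1 (63.4 and 14.2), lay between 6.55 and 197.6.

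Channels opened by internal calcium or sodium gave 2 of 11 genes above background, and both encode accessory subunits. Kcnmb4 had 692.0 and 715.7 and Kcnmb2 426.3 and 403.5. The pore they join, the large conductance channel Kcnma1, was at 188.5 and 141.0 on its brightest probe set, and 0 of its 5 probe sets passed the limit on both arrays. The smooth muscle accessory subunit Kcnmb1 was at 113.1 and 57.0. The small and intermediate conductance channels that hyperpolarize mature endothelium did not pass on both arrays, with Kcnn4 passing in replicate 1 only (296.5 and 188.9) and Kcnn3 at 16.9 and 24.1. Kcnn1 (144.9 and 117.4) and Kcnn2 (56.0 and 101.2) were below on both arrays.

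**Figure D2:**
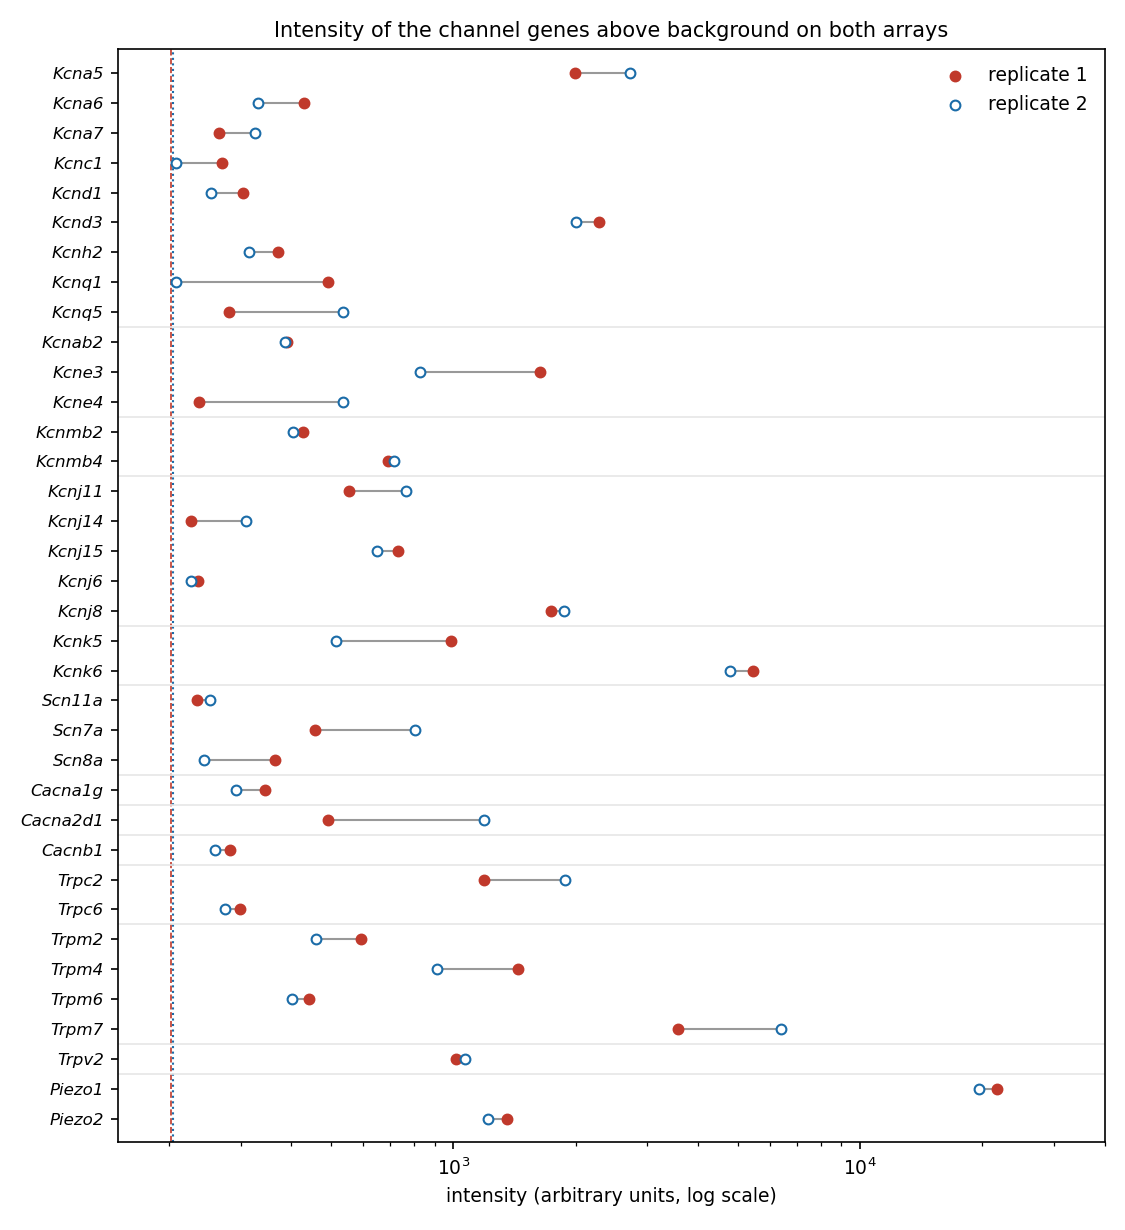
Intensity (log axis, arbitrary units) of each of the 36 channel genes above background in replicate 1 (filled red) and replicate 2 (open blue), joined by a line and grouped by family, with the background limits of 202.5 (dashed) and 204.1 (dotted). Piezo1, at 21776.7 and 19642.9, lies far from the limits with its points close together, whereas Kcnq1 and Kcnc1 touch the limit in replicate 2; intensities of different genes come from different probe sets and were not compared.

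Sodium channels had 3 of 8 alpha subunits and 0 of 3 beta subunits above background. Scn7a, the atypical channel known to sense the sodium concentration, had 456.4 and 806.5 and was higher in replicate 2. A second Scn7a probe set passed the limit in that replicate only (123.6 and 246.2), and the last was at 5.17 and 8.37. Scn7a lies next to Scn9a (48.2 and 88.4), a channel of peripheral neurons, which in turn lies next to Scn1a (64.6 and 61.7), a channel of central neurons, and both were under the limit on both arrays.

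Scn8a, a channel of the axon, had 365.2 and 243.2, and a second of its 5 probe sets, at 277.4 and 248.0, was also above. Scn11a, known from pain-sensing neurons, had 234.8 and 252.3, within 1.16 times the limit in replicate 1, and its neighbour Scn10a had 7.95 and 5.15. Scn3a, the form of the embryonic brain, passed in replicate 2 only (177.9 and 319.7), and its neighbour Scn2a was at 52.4 and 124.6. Of the beta subunits Scn2b (208.4 and 183.8) and Scn3b (143.3 and 300.4) passed on 1 array and Scn4b (81.5 and 138.0) on neither. A second Scn2b probe set passed on the opposite array (88.6 and 246.8), so no single Scn2b probe set passed on both.

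Voltage-gated calcium channels combine a pore-forming alpha1 subunit with alpha2delta, beta and, in some tissues, gamma subunits. Cacna1g, the pore of a T-type channel that opens near the resting potential, was the only gene of 9 in the alpha1 group above background (343.9 and 292.3). The L-type pores passed on 1 array at most. Cacna1c of smooth muscle and heart (195.2 and 244.9) and Cacna1f of the retina (188.2 and 220.6) passed in replicate 2, Cacna1d in replicate 1 (209.2 and 188.6), and Cacna1s of skeletal muscle on neither (21.8 and 15.45). The neuronal pores Cacna1a (137.8 and 121.5), Cacna1b (104.9 and 74.1) and Cacna1e (at most 161.0) and the T-type pore Cacna1h (58.0 and 93.8) were below.

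Among the accessory subunits of calcium channels, Cacna2d1 had 492.2 and 1190, and 2 further probe sets were also above the limit and higher in replicate 2 (447.3 and 1153; 382.7 and 694.6). The other 2 of its 5 probe sets were under the limit (66.8 and 170.3; 100.3 and 111.9), and with its lowest probe set the log2 difference was -0.12 in place of -1.24. Cacnb1, the beta subunit of skeletal muscle, had 282.8 and 259.4 on 1 of 4 probe sets and overlaps Rpl19, a ribosomal protein gene. Cacnb2, the beta subunit of heart and smooth muscle, was at 34.6 and 14.4, and Cacnb4 at 114.2 and 150.2. Cacna2d2 (34.1 and 178.9), Cacna2d3 (99.8 and 105.1) and Cacna2d4 (36.5 and 82.2) were below as well.

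Of the 8 gamma subunits, known from skeletal muscle and from glutamate receptor complexes of neurons, 3 passed on 1 array: Cacng7 (260.2 and 116.4), Cacng2 (167.8 and 221.4) and Cacng8 (174.6 and 230.3). The 5 others lay between 22.3 and 194.5, including Cacng1 (57.7 and 95.4), Cacng3 (27.4 and 22.3) and Cacng4 (151.3 and 181.4).

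TRP channels are cation channels opened by ligands, lipids, temperature or internal calcium. In the TRPM group 4 of 8 were above background. Trpm7, a channel fused to a kinase that carries magnesium and zinc and is found in most cells, had 3562 and 6413, and all 4 of its probe sets were above. The size of its difference depended on the probe set: the other readings were 3609 and 3876, 943.1 and 1366, and 316.7 and 366.5, each higher in replicate 2.

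Trpm4, a calcium-activated channel for monovalent cations, had 1444 and 913.1, and Trpm2, opened by oxidative stress in phagocytes and endothelium, had 594.5 and 460.1. Trpm6, the magnesium channel of the distal tubule, had 441.1 and 402.2. In Trpm2 (187.4 and 276.3) and Trpm6 (229.7 and 151.9) the second probe set passed on 1 array only. Trpm5, the taste transduction channel and the neighbour of Kcnq1, passed in replicate 2 alone (134.3 and 247.0), and Trpm1 (96.6 and 187.1), Trpm3 (105.1 and 131.5) and Trpm8, the cold receptor (43.6 and 22.1), were below.

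Among TRPC channels, which act downstream of phospholipase C, 2 of 6 were above background. Trpc2, known in mice from the vomeronasal organ, had 1191 and 1887 on 1 probe set and 224.9 and 471.8 on another. Trpc2 overlaps the coding genes Xndc1 and Xntrpc, so these readings cannot be assigned to Trpc2 alone. Trpc6, a diacylglycerol-gated channel of podocytes, smooth muscle and endothelium, had 298.2 and 274.5. Of 4 podocyte markers Synpo (1012 and 2346) and Podxl, which endothelium also expresses (29868.0 and 30059.6), were above background, Wt1 passed in replicate 2 only (144.0 and 346.8) and Nphs1 on neither (89.1 and 100.2), and their part in the Trpc6 value was not tested. Trpc1 passed in replicate 2 only (144.3 and 352.9) and Trpc7 in replicate 1 only (247.3 and 85.5), while Trpc4, known from endothelium, had 135.2 and 101.5 and Trpc5 88.4 and 98.0.

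Of the TRPV and TRPA genes, Trpv2, known from macrophages, was above background at 1014 and 1070 (1042 ± 39.5, SD, n = 2). Csf1r (34029.5 and 36805.6), Adgre1 (4305 and 7632) and Cd68 (2358 and 2218), markers of macrophages, were above background in the same pools, and their part in the Trpv2 value was not tested. Trpv4, the osmosensitive channel known from endothelium, had 29.4 and 42.8, and Trpv1, the heat and capsaicin receptor, 59.4 and 43.9. Trpv6, an epithelial calcium channel, passed in replicate 1 only (231.9 and 46.4), and Trpa1, the irritant receptor, on neither (129.6 and 80.6).

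The channel genes were also sorted by the cells they are best known from. Of 14 channels known from endothelium 8 were above background on both arrays, 2 on 1 array and 4 on neither, and of 10 known from smooth muscle and pericytes 5, 1 and 4. Of 24 known from neurons and striated muscle 5 were above on both, 5 on 1 and 14 on neither. Against the 61.0% of all genes above background, the endothelium and smooth muscle lists lay near or under that share and the neuron and muscle list well under it, and the lists were not tested against each other. Over all 136 channel genes the share was 26.5%. The neuron and muscle list lay near this share, and the endothelium and smooth muscle lists lay above it. The lists were drawn up with earlier results of these data known. The lists for macrophages and blood cells (4 of 8 on both arrays) and kidney epithelium (4 of 10) were smaller, and 5 genes, Piezo1, Kcnk6, Kcnj2, Kcnn4 and Trpm2, stand in both the endothelium and the blood list. The 8 endothelial channels above background were Kcnj8, Kcne3, Kcnk6, Piezo1, Trpc6, Trpm2, Trpm4 and Trpm7, and the 4 on neither were Kcnj2, Kcnn3, Trpv4 and Trpc4. Members that lay under the limit were not shown to be unexpressed, since an array reading near background sets no level.

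**Figure D3:**
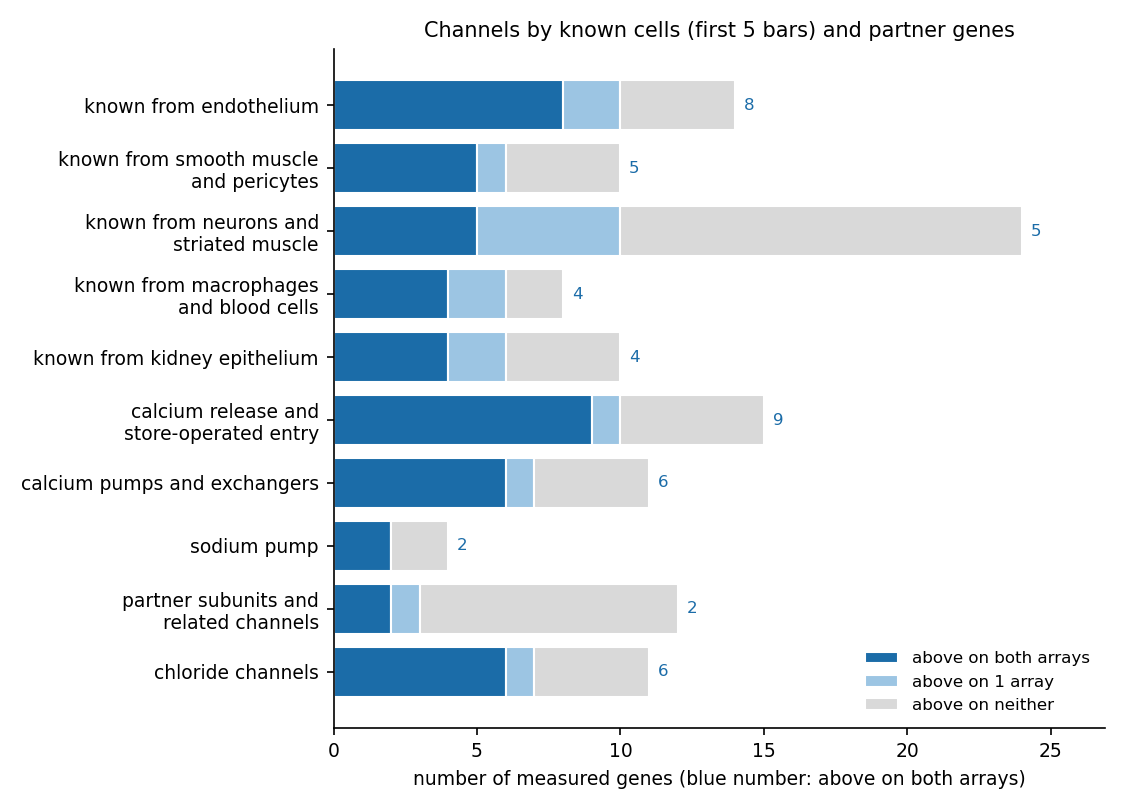
Genes exceeding background on both arrays (dark blue), on 1 array (light blue) and on neither (grey), as numbers of the genes measured, for the channel genes grouped by the cells they are known from (first 5 bars) and for partner genes (last 5 bars). The bar for neurons and striated muscle has 5 of 24 genes in dark blue, and that for calcium release and store-operated entry 9 of 15.

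Genes that work with these channels were examined in 5 lists, whose counts are to be read against the 61.0% of all genes above background. Of 15 genes of calcium release and store-operated entry 9 were above it, a share near that of all genes. Store-operated calcium entry, in which Stim proteins sense the store and open Orai channels, had readings above background for Stim2 (7499 and 7970), Orai1 (1673 and 1558), Orai3 (1620 and 1414) and Orai2 (238.4 and 296.7), while Stim1 passed in replicate 1 only (383.6 and 203.8). Of the release channels, the inositol trisphosphate receptors Itpr2 (639.7 and 761.2) and Itpr3 (2070 and 1260) were above and the muscle and neuronal ryanodine receptors Ryr1 (79.7 and 61.9) and Ryr2 (138.0 and 135.3) below. The lysosomal channels Mcoln1 (2734 and 2671), Tpcn1 (594.9 and 482.9) and Tpcn2 (299.6 and 382.0) were the remaining genes above background in this list.

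Calcium pumps and exchangers gave 6 of 11, also near the share of all genes. The reticulum pumps Atp2a2 (36025.0 and 38425.6) and Atp2a3 (777.1 and 985.8), the plasma membrane pumps Atp2b1 (3608 and 7109) and Atp2b4 (950.4 and 901.5), the sodium-calcium exchanger Slc8a1 (1095 and 1053) and the mitochondrial uniporter Mcu (3262 and 3084) were above background. The muscle pump Atp2a1 (130.0 and 192.4) and the neuronal pump Atp2b2 (85.7 and 74.7) were below, and Atp2b3 passed in replicate 1 only (292.4 and 190.5). The ubiquitous reticulum pump was thus above the limit in both pools and the muscle form under it.

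The sodium pump maintains the gradients that the channels use, and 2 of its 4 measured subunits were above background. Atp1b3 had 19012.3 and 15780.4, and Atp1b1, the epithelial beta subunit, had 687.5 and 4950, a log2 difference of -2.81. Atp1a4 (32.1 and 7.52) and Atp1b2 (185.7 and 187.7) were below. The pools therefore differed far more in Atp1b1 than in any channel gene above background.

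Chloride channels gave 6 of 11, again near the share of all genes, namely the endosomal and lysosomal exchangers Clcn3 (13071.8 and 9315), Clcn4 (6201 and 6460), Clcn5 (5751 and 7999), Clcn6 (2887 and 2916) and Clcn7 (1431 and 962.3), and the lipid scramblase and channel Ano6 (22090.8 and 15050.0). Clcn1 of skeletal muscle (41.2 and 36.0) and Clcn2 (148.1 and 93.0) were below, and the calcium-activated channel Ano1 passed in replicate 2 only (174.0 and 271.9). Among partner subunits and related channels 2 of 12 were above, Abcc9 and the polycystin Pkd1 (637.0 and 813.6). In that list Pkd2l1 (96.2 and 134.9) and Hcn2, a pacemaker channel (114.4 and 44.9), were below, and the proton channel Hvcn1 passed in replicate 2 only (117.6 and 420.3).

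The pools were compared after their medians over probe sets above background had been made equal. Among the 36 channel genes above background the log2 difference, replicate 1 minus replicate 2, had a median of 0.16 and an SD of 0.57, against 0.04 and 0.51 over the 11102 genes above background. Of the 36, 22 were higher in replicate 1 and 14 in replicate 2, where 5083 of the 11102 genes were higher in replicate 2. Kcnq1 (2.43-fold) and Kcne3 (2.03-fold), 5.56% of the 36, were over 2-fold higher in replicate 1, against 2.28% of all genes above background. Cacna2d1 (2.36-fold) and Kcne4 (2.21-fold), also 5.56%, were over 2-fold higher in replicate 2, against 2.57%. These are 2 genes each way, and Kcnq1 and Kcne4 lay only 1.02 and 1.17 times over the limit on 1 array. With 2 times the limit, 0 channel genes were over 2-fold higher in replicate 1 and 1 in replicate 2. With 1 array per pool no difference could be tested.

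The renal stroma markers moved between the same pools. All 11 above background were higher in replicate 2, with a median log2 difference of -1.95, as in Pdgfra (719.8 and 4811), Foxd1 (775.4 and 1775) and Tbx18 (282.0 and 1115), and Tcf21, the lowest, had 186.4 and 352.2. Their summed intensity was 24279.6 in replicate 1 and 87360.2 in replicate 2, whereas that of the endothelium markers was 218079.3 and 188299.3 and that of the macrophage markers 96469.4 and 112120.0. Among the channel genes higher in replicate 2 were Cacna2d1 (log2 difference of -1.24), Kcne4 (-1.14), Kcnq5 (-0.90) and Scn7a (-0.79). Trpm7 had -0.81 on its brightest probe set, but nearly equal readings of 3609 and 3876 on another. The part of stromal cells in these differences was not tested.

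**Figure D4:**
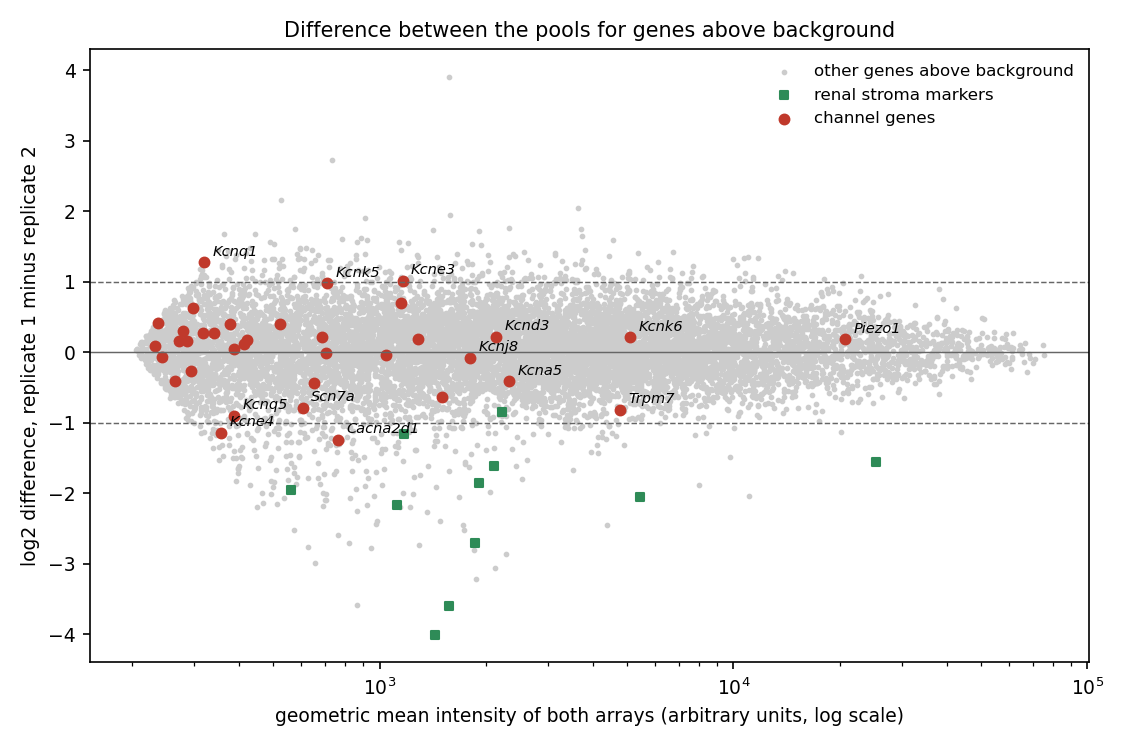
Log2 difference (replicate 1 minus replicate 2, vertical axis) against the geometric mean intensity of both arrays (log axis, arbitrary units) for genes above background, with other genes in grey, the 36 channel genes in red and renal stroma markers as green squares. The dashed lines mark 2-fold, beyond which lie Kcnq1 and Kcne3 above and Cacna2d1 and Kcne4 below, while all 11 stroma markers lie below 0.

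How firmly a channel was read depended on its probe sets. Of the 36 channel genes above background, 16 had a single probe set and 20 had several. Among these 20, all probe sets passed in 3 genes, Trpm7, Piezo2 and Trpc2, and 15 had only 1 that passed, among them Kcnd3, Kcnj11, Kcnj15 and Kcnk5. After 2 rounds of amplification the 3′ to 5′ signal ratio of the Gapdh control was 19.5 in replicate 1 and 22.3 in replicate 2 (Actb 3.16 and 3.67), while the positions of the channel probe sets along their transcripts were not analysed here. The call of 11 channel genes, namely Kcna5, Kcne3, Kcnj8, Kcnk6, Kcnmb4, Piezo1, Piezo2, Trpc2, Trpm4, Trpm7 and Trpv2, was kept under each alternative limit, probe set choice and normalization that could be applied to them. Among these, only Piezo2, Trpc2 and Trpm7 have several probe sets, so probe set choice could not change the call of the others. Alternative limits lower than the main limit could remove no call. Being kept is therefore no measure of firmness across probe sets for genes with 1 probe set.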

How the data were processed

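The deposited table holds 1 intensity per probe set and array on a linear scale, from an Affymetrix mouse array of the 3′ expression type. The submitters' processing notes name GCOS. Array medians were 233.4 and 246.7, and the 2% trimmed mean was 1500.0 on each, so the arrays had been scaled alike. The paper's methods, written for a different array, were not applied. Of 45101 probe sets, 34945 had 1 annotated gene and were used, and 932 with several, 9160 with none and 64 controls were not. Each gene took its brightest probe set, by mean log2 intensity over both arrays. The limit came from 83 probe sets of 75 sensory receptor genes. Differences were taken on the log2 scale after removing an offset of -0.04. All 136 symbols were found in a RefSeq table (GRCm38.p6), which was used for names and neighbouring genes only. The annotation's genome build was not given in the sources used.

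No test and no p-value was possible with 1 group. Named were all channel genes above the limit on either array, up to 3 others per family and all those known from endothelium or smooth muscle, partner genes above background with up to 3 others per list, and markers among the first 3 of a list. Kcnn2, Scn9a, Cacna1s, Hvcn1, Tcf21, Des, Cnn1, Klf1, Rhag, Synpo and Podxl fall outside this rule and were chosen after their values were seen. The members and lists were chosen with earlier results of these data known. Python 3.11.15, numpy 2.4.6, pandas 2.3.3 and matplotlib 3.10.9 were used.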

Additional observations from a re-analysis of the deposited data

Results flagged for a closer look

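A signal appeared in data outside the main measurement: a probe set assigned to both Xndc1 and Trpc2, and so left out of the gene values, had 815.7 in replicate 1 and 753.7 in replicate 2, above the limit on both arrays. The probe set assigned to both Xntrpc and Trpc2 had 7.09 and 18.7. No group held enough samples for outlying samples to be looked for.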

How the results depend on the processing

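The count of channel genes above background, 36, was 70 with a limit of 100, 64 with the Bacillus control limit, 23 with the median over probe sets, 19 with the lowest probe set and 18 with 2 times the limit, against 72.7%, 70.6%, 53.4%, 39.1% and 52.4% of all genes. It stayed between 25 and 46 with the 99th and 90th percentiles, 32 without suffixed probe sets and 36 after quantile normalization, and was 43 and 50 on 1 array alone. The share of channel genes stayed under that of all genes in each of these settings. Counts by family depended on the setting, and over families and settings 124 stayed near the main count and 52 moved from it. Kv alpha subunits, 9 in the main setting, were 16 with a limit of 100 and 2 with 2 times the limit. The count over 2-fold higher in replicate 1, 2 genes, was 4 with a limit of 100 and with the Bacillus limit, 1 without suffixed probe sets, without centring and with an offset of 32, and 0 with the 99th percentile and with 2 times the limit. The count over 2-fold higher in replicate 2, also 2, was 4 with the Bacillus limit and 1 with the 99th percentile, 2 times the limit, the median of probe sets and no suffixed probe sets. The median log2 difference ranged from -0.04 to 0.17, turning negative with a limit of 100 (-0.02), the median of probe sets (-0.04) and the lowest probe set (-0.01), so its direction is not settled. Of the differences of single channel genes 372 stayed within the spread and 21 moved beyond it. The 372 are no measure of stability, since many of them could hardly have moved. Other limits and the lack of centring shift the differences of all genes alike, by a small amount. For genes with a single probe set, the median and the lowest probe set give the same value. All 21 moves came with a change of probe set. With the median over probe sets the sign changed in several genes, among them Kcnc1, Cacnb1, Kcnab2, Kcnd1, Kcnj15, Kcnd3 and Kcnmb2. Signal near background limits all calls within 2 times the limit. No paired analysis was possible because there is 1 group.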
